A study of Rattus norvegicus with 16 samples.

Results

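The 10 genes described here carry sodium and potassium across the distal nephron or regulate that transport. They were chosen by name from the deposited table of 35849 genes: Slc12a1, Slc12a3, Scnn1a, Scnn1b, Scnn1g, Kcnj1, Sgk1, Nedd4l, Wnk4 and Umod. Each name was found in 1 row, and all 10 genes passed the filter on low counts in each of the 6 comparisons.

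Renal tissue of 16 male SD rats, labelled inbred, was sequenced as bulk RNA, with 4 rats per group out of the 6 per group that the study kept, and the part of the kidney taken was not stated in the sources used here. The rats were between 6 and 8 weeks old at the start. Rats of the normal group received citrate buffer and a normal diet. Rats of the DN (diabetic nephropathy) group received streptozotocin, a toxin of the insulin-producing beta cells, at 45 mg/kg after a fast, and then a diet rich in glucose and fat. Only rats whose blood glucose was over 16.7 mmol/L were kept in the diabetic groups. Both SIN groups were diabetic rats on the same diet that received sinomenine at 20 or 40 mg/kg, a plant alkaloid, by gavage every day for 8 weeks, and the DN group received vehicle. Sinomenine was therefore compared only within streptozotocin-treated animals on this diet, and no group received sinomenine without diabetes.

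The distal nephron begins with the thick ascending limb, where the apical cotransporter NKCC2 (Slc12a1) takes up sodium, potassium and chloride and the channel ROMK (Kcnj1) returns potassium to the lumen. In the distal convoluted tubule sodium enters through NCC (Slc12a3), the target of thiazides, under control of the WNK kinases. In the connecting tubule and collecting duct it enters through the epithelial sodium channel ENaC, made of the subunits Scnn1a, Scnn1b and Scnn1g, which aldosterone regulates partly through the kinase Sgk1 and the ubiquitin ligase Nedd4l.

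Totals ran from 19616312 to 25217030 estimated counts per rat, and the lowest value of any of the 10 genes in any rat was 551 estimated counts, for Wnk4. CPM, the unit of all levels here, puts every library on the same total after TMM normalization of the 16 rats together, and fold changes are on the log2 scale of edgeR's quasi-likelihood fit with their standard errors. A gene was called at a Benjamini-Hochberg adjusted p under 0.05 over all genes tested in the comparison. The DN rat labelled replicate 3 stood apart: the summed level of 11 markers of renal pelvis, urothelium and smooth muscle was 498 CPM in it and between 35.7 and 147 CPM in the other 15 rats. Calls of the 10 genes between DN and normal rats are therefore given without it as well. Of 121 other genes from the lists used below 24 were called between DN and normal, and 20 of these were called without that rat too. The 4 that were not are Casr, Cdkn1a, Fkbp5 and Tef, and 1 other, Slc5a12, was called only without it. Serial codes in the sample records ran in order inside each group, and no label says what they mark, so that any effect that goes with them cannot be told apart from the condition.

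Of the 10 genes 3 were called between DN and normal rats, where 19.5% of all 15775 genes tested were called: Umod (ENSRNOG00000015557) was lower, and Scnn1a (ENSRNOG00000019368) and Wnk4 (ENSRNOG00000020441) were higher in DN. The same 3 genes were called between the SIN (40 mg/kg) and normal rats (5.97% of all genes), and Umod and Scnn1a between the SIN (20 mg/kg) and normal rats (6.36%). No gene of the 10 was called between either SIN group and the DN group, where 0% of all genes were called with either dose, and none was called between the doses (0.00639%). These comparisons share rats: all those against normal use the same 4 normal rats, and both SIN comparisons against DN use the same 4 DN rats.

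**Figure D1:**
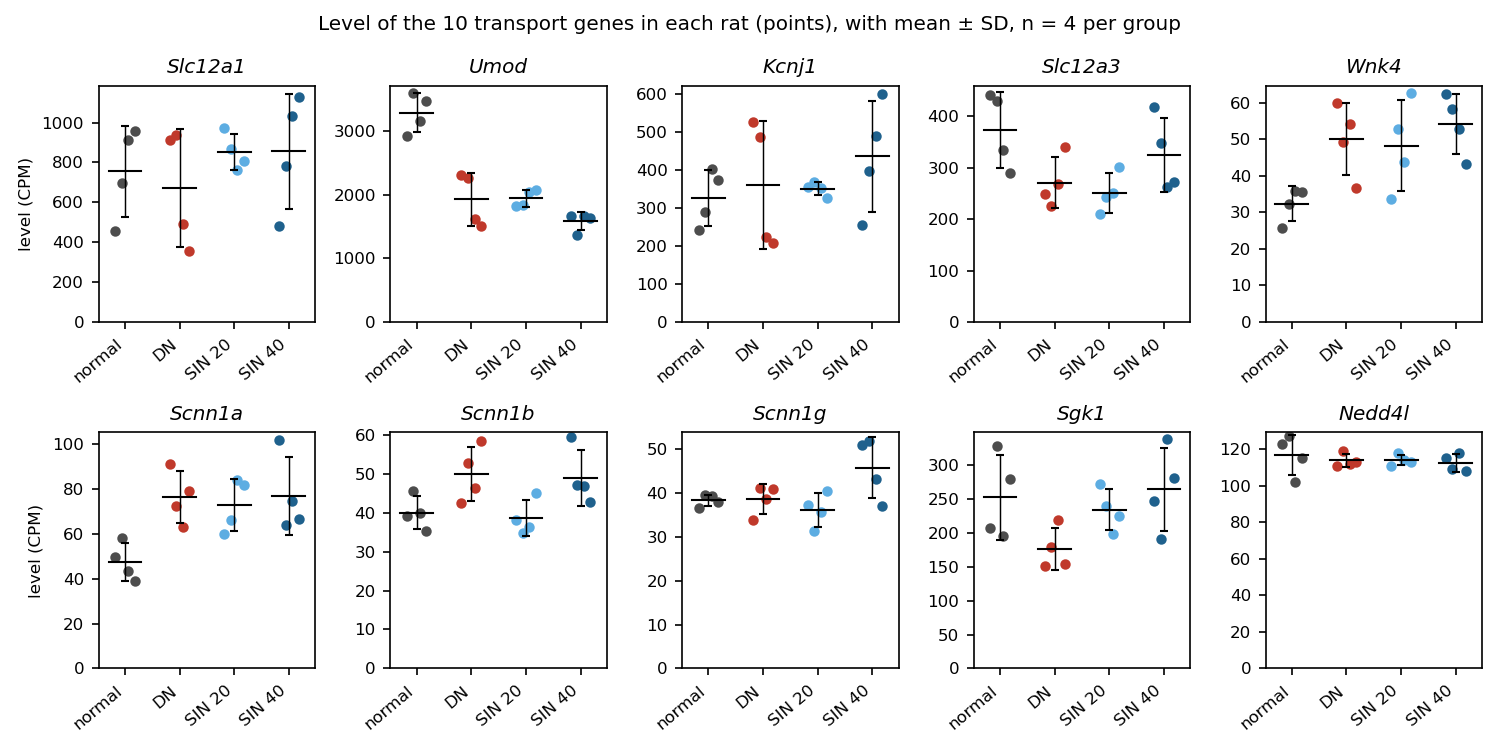
Level of each of the 10 genes in CPM (y axis, from 0, a separate scale for each gene) in each rat (points) by group (x axis), with the group mean and SD, n = 4; SIN 20 and SIN 40 stand for SIN at 20 and 40 mg/kg. Umod lay between 2921 and 3596 CPM in the normal rats and at most at 2302 CPM in the other 12, Scnn1a lay at most at 58.1 CPM in the normal rats and at least at 59.9 CPM in the others, and Nedd4l stayed between 102 and 127 CPM.

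Umod encodes uromodulin, a protein that thick ascending limb cells secrete into urine and that is known to support NKCC2 and ROMK at the cell surface. Its level in the normal rats was 2921, 3596, 3158 and 3469 CPM. In the DN rats it was 2302, 2269.6, 1616 and 1509 CPM. Every DN rat lay below every normal rat, and within the DN group 2 rats lay well above the other 2. The difference was -0.77 ± 0.16 on the log2 scale (edgeR, adjusted p = 0.0154), a level 0.587 times that of the normal rats. Without DN replicate 3 it was -0.69 with an adjusted p of 0.0324, and without normal replicate 4 it no longer passed (-0.74, adjusted p = 0.0534).

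Umod was also lower than normal in both SIN groups. The 4 rats of the SIN (20 mg/kg) group had 1818, 1838, 2039 and 2076 CPM, and the difference from normal was -0.76 ± 0.10 (edgeR, adjusted p = 0.00289). The SIN (40 mg/kg) rats had 1669, 1367, 1660.4 and 1629.6 CPM, which was -1.06 ± 0.11 against normal (edgeR, adjusted p = 8.12e-04). All 8 SIN rats lay below the 4 normal rats, and Umod in the SIN (40 mg/kg) group was the only one of the called differences among the 10 genes to reach a log2 size of 1. All 4 rats of the SIN (40 mg/kg) group also lay below all 4 of the SIN (20 mg/kg) group. That difference of -0.30 ± 0.10 had an unadjusted p of 0.0142 and an adjusted p of 0.961 in edgeR's test, so it was not called.

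Slc12a1, the gene of NKCC2, is expressed in the thick ascending limb like Umod, but it was not called in any comparison. From rat to rat within groups they varied together, with r = 0.62 after subtraction of the group means of log2 CPM (rho 0.53, and 0.66 without the 2 rats farthest from the median of Slc12a1, over 16 rats). The normal rats had 456, 698, 912 and 955 CPM, and the DN rats 911, 937, 489 and 354 CPM. The groups overlapped throughout, and the highest DN rat exceeded the lowest 2.64 times. DN differed from normal by -0.17 ± 0.33 (edgeR, adjusted p = 0.745). The SIN (20 mg/kg) rats had 975, 865, 759.9 and 809 CPM, and the SIN (40 mg/kg) rats 483, 784, 1030.2 and 1127 CPM. Against DN the differences were 0.34 ± 0.28 (edgeR, adjusted p = 0.545) and 0.35 ± 0.35 (adjusted p = 0.624). With standard errors of that size, differences as small as these could not be told apart from none.

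Kcnj1, the ROMK channel of the thick ascending limb and of principal cells, varied among rats in the manner of Slc12a1. Levels were 241, 288, 402 and 372 CPM in the normal rats and 525, 486, 223 and 207 CPM in the DN rats. The DN group again held 2 high and 2 low rats, the same ones as for Slc12a1, and its difference from normal was 0.15 ± 0.31 (edgeR, adjusted p = 0.763). In the SIN (20 mg/kg) rats the 4 values were close together, at 355, 367, 351 and 326 CPM. In the SIN (40 mg/kg) rats they spread from 256 to 599.7 CPM, with 398 and 489 CPM between. Neither SIN group differed from DN in the test (-0.05 ± 0.28, adjusted p = 0.950, and 0.28 ± 0.35, adjusted p = 0.714).

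Per length, using the gene lengths of the table, Umod was the highest of the 10 genes in every group, with 1479.5 ± 137 CPM per kb in normal rats (mean ± SD, n = 4). Kcnj1 and Slc12a1 came next at 159 ± 36.2 and 158 ± 48.1 CPM per kb and did not differ beyond their spread. Slc12a3 (85.4 ± 16.7) and Sgk1 (80.8 ± 20.1) followed, again within their spread, then Nedd4l (40.6 ± 3.78) and the ENaC subunits, and Wnk4 was lowest at 8.02 ± 1.18 CPM per kb. The ratio of Umod to Slc12a1 per length lay between 7.44 and 13.8 in the normal rats and between 5.21 and 9.15 in the DN rats, so those groups overlapped. In the SIN (40 mg/kg) rats it lay between 3.10 and 7.42, with all rats below the lowest normal rat. The SIN (20 mg/kg) rats, at 4.01 to 5.76, also lay below all normal rats, and none of these ratios was tested.

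**Figure D2:**
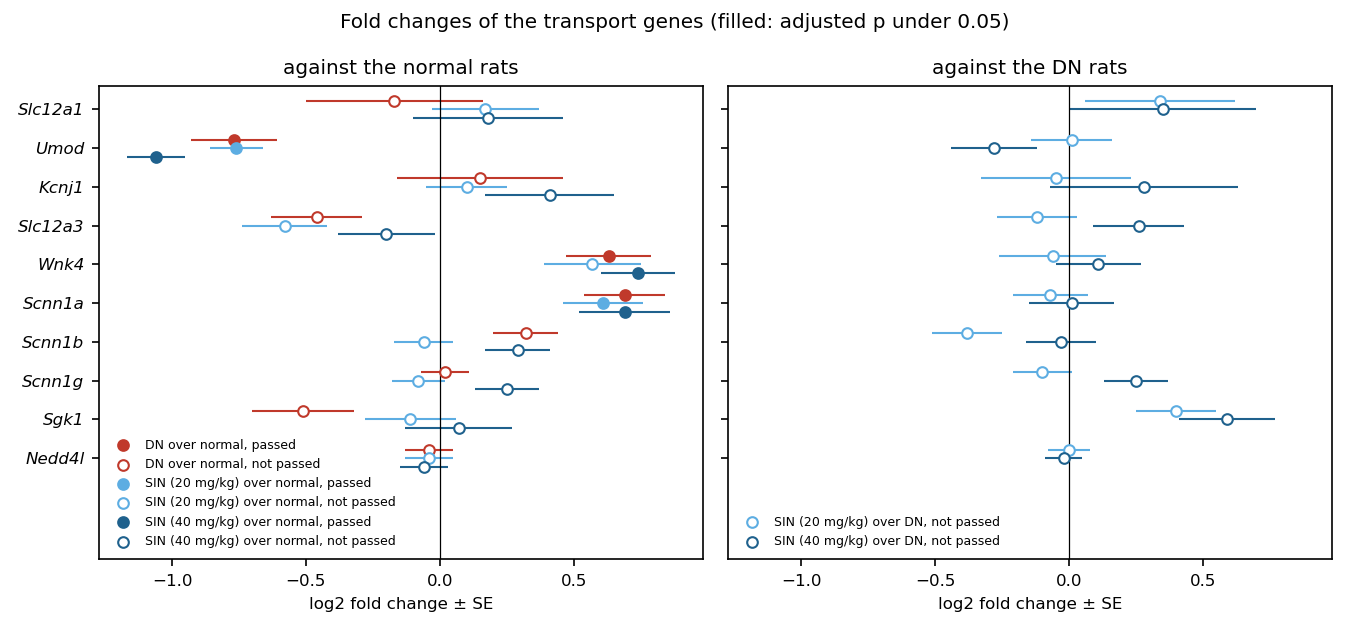
Log2 fold change (x axis) with its standard error for each of the 10 genes (y axis), of DN and each SIN group against normal (left) and of both SIN groups against DN (right); filled points passed an adjusted p under 0.05. In the left panel Umod lies between -1.06 and -0.76, Scnn1a lies between 0.61 and 0.69, and no point in the right panel is filled.

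Slc12a3 encodes NCC of the distal convoluted tubule. Its level was 441, 429, 334 and 290.3 CPM in the normal rats and 248, 225, 269 and 341 CPM in the DN rats. The groups overlapped through 1 DN rat, replicate 4, which lay above the 2 lowest normal rats. DN lay lower by -0.46 ± 0.17, with an unadjusted p of 0.0245 and an adjusted p of 0.0868 (edgeR), and so did not pass with all 8 rats. Without DN replicate 4 it passed (-0.59, adjusted p = 0.0399). The SIN (20 mg/kg) rats had 209, 243, 249.9 and 301 CPM, -0.58 ± 0.16 against normal (adjusted p = 0.0630), a difference that DESeq2 called (adjusted p = 0.00946) and that edgeR called without normal replicate 4 (-0.68, adjusted p = 0.0454). The SIN (40 mg/kg) rats, at 417, 347, 263 and 273 CPM, overlapped the normal group (-0.20 ± 0.18, adjusted p = 0.549).

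Wnk4 encodes a kinase of the distal nephron that acts on NCC through the kinase SPAK and that KLHL3 and CUL3 mark for degradation. The normal rats had 25.7, 32.4, 35.9 and 35.6 CPM. The DN rats had 60.1, 49.2, 54.3 and 36.8 CPM, each above the highest normal rat, though replicate 4 only narrowly. The difference was 0.63 ± 0.16 (edgeR, adjusted p = 0.0269), 1.55 times the normal level. It lost the call without DN replicate 3 (0.59, adjusted p = 0.0532) and without 5 of the other 7 rats in turn, with adjusted p-values between 0.0130 and 0.0628 over the 8 omissions.

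In the SIN (20 mg/kg) rats Wnk4 was at 33.8, 52.9, 43.7 and 62.8 CPM, and 1 rat lay within the normal range. This difference of 0.57 ± 0.18 from normal did not pass (edgeR, adjusted p = 0.0976). The SIN (40 mg/kg) rats, at 62.4, 58.4, 53.0 and 43.2 CPM, all exceeded the normal rats, and the difference of 0.74 ± 0.14 passed (edgeR, adjusted p = 0.0150), though not without SIN (40 mg/kg) replicate 2 (adjusted p = 0.0551). The ratio of Wnk4 to Slc12a3 per length was 0.0984 ± 0.0318 in normal rats and 0.208 ± 0.0637 in DN rats. It was 0.206 ± 0.0285 and 0.183 ± 0.0246 in the SIN groups, and every SIN rat lay above the highest normal rat, at 0.133. In the DN group 1 rat, at 0.117, lay within the normal range.

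Scnn1a, the alpha subunit of ENaC, was raised in all 3 diabetic groups. Its level was 49.8, 58.1, 43.3 and 38.8 CPM in the normal rats and 90.9, 72.5, 63.2 and 79.2 CPM in the DN rats, which lay above all normal rats. The difference was 0.69 ± 0.15 (edgeR, adjusted p = 0.0165), 1.61 times the normal level, and without DN replicate 3 it was 0.77 (adjusted p = 0.0185). It lost the call without normal replicate 3 (0.65, adjusted p = 0.0530) and without normal replicate 4 (0.60, adjusted p = 0.0529). The SIN (20 mg/kg) rats had 59.9, 66.1, 83.8 and 81.8 CPM (0.61 ± 0.15 against normal, adjusted p = 0.0403). The SIN (40 mg/kg) rats had 102, 64.0, 74.6 and 66.6 CPM (0.69 ± 0.17, adjusted p = 0.0442). Both calls were lost without any one of 6 of the 8 rats compared, normal replicates 1, 3 and 4 among them, with adjusted p-values up to 0.119 for 20 mg/kg and 0.123 for 40 mg/kg. All 8 SIN rats lay above the normal rats, and neither group differed from DN (-0.07 ± 0.14, adjusted p = 0.807, and 0.01 ± 0.16, adjusted p = 0.989).

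The estimated counts of Wnk4 held a fraction in 16 of 16 rats and those of Scnn1a in 15 of 16, whereas the other 8 genes had fractions in at most 2 rats. A fraction marks reads that the authors' counting divided among features, so the levels of these 2 genes are less certain than the others. In the RefSeq annotation of GRCr8, a pseudogene, Atp5mk-ps2, overlaps Wnk4. The counts rest on an earlier assembly, and any relation of this overlap to the fractions was not tested.

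Scnn1b and Scnn1g, the beta and gamma subunits, did not pass in any comparison. Scnn1b was at 39.2, 45.6, 39.8 and 35.4 CPM in normal rats and 42.4, 52.7, 46.3 and 58.3 CPM in DN rats, overlapping groups that differed by 0.32 ± 0.12 (edgeR, unadjusted p = 0.0241, adjusted p = 0.0859). In the SIN (20 mg/kg) rats it was at 38.2, 34.7, 36.2 and 45.1 CPM, -0.38 ± 0.13 against DN (unadjusted p = 0.0140, adjusted p = 0.271). In the SIN (40 mg/kg) rats it was at 59.3, 47.2, 46.8 and 42.6 CPM (-0.03 ± 0.13 against DN, adjusted p = 0.936). The mean of the SIN (20 mg/kg) group was 38.5 ± 4.58 CPM and that of the normal group 40.0 ± 4.21 CPM (SD, n = 4).

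Scnn1g varied least among the normal rats, at 36.6, 39.4, 39.2 and 37.8 CPM. The DN rats had 33.7, 41.1, 38.6 and 40.8 CPM, on both sides of the normal values (0.02 ± 0.09, adjusted p = 0.917). The SIN (40 mg/kg) rats had 50.8, 51.8, 43.2 and 37.0 CPM, of which 3 lay above every rat of the normal, DN and SIN (20 mg/kg) groups. Against DN the difference was 0.25 ± 0.12 (edgeR, adjusted p = 0.332).

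**Figure D3:**
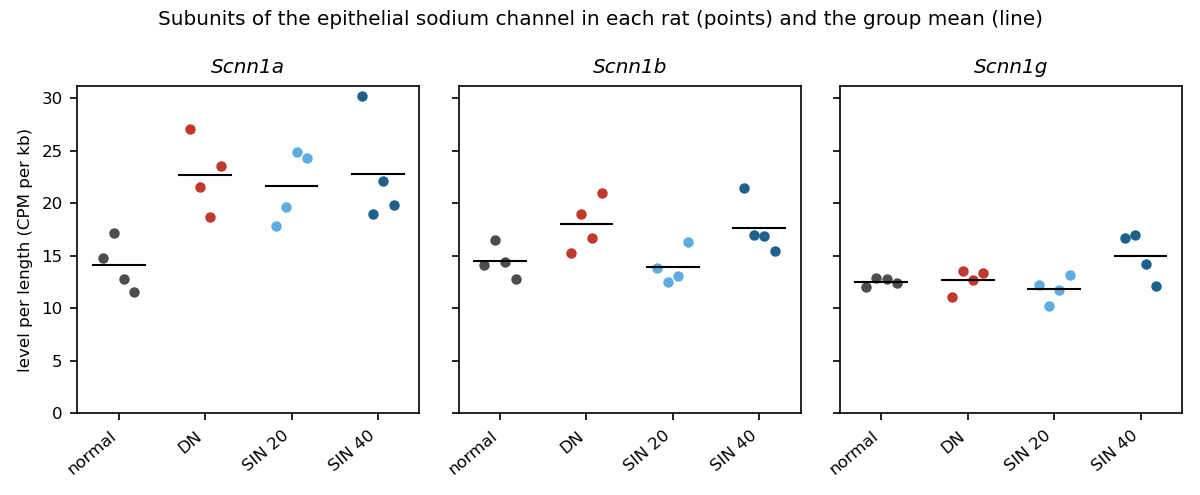
Level per length of the 3 ENaC subunits in CPM per kb (y axis, from 0, shared) in each rat (points) by group (x axis), with the group mean (line). The 3 subunits lay at similar means in the normal rats, 14.1, 14.4 and 12.5 CPM per kb, and in the DN rats Scnn1a lay highest, at 22.7 CPM per kb, above Scnn1b at 18.0 and Scnn1g at 12.6.

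Per length the 3 subunits stood at 14.1 ± 2.49 (Scnn1a), 14.4 ± 1.52 (Scnn1b) and 12.5 ± 0.420 (Scnn1g) CPM per kb in the normal rats, within the spread of one another. The ratio of Scnn1a to Scnn1g was 1.12 ± 0.191 in normal rats, between 0.928 and 1.33. It was 1.82 ± 0.428 in DN and 1.83 ± 0.281 in SIN (20 mg/kg), whose lowest rats, at 1.48 and 1.45, lay above all normal rats. In SIN (40 mg/kg) it was 1.53 ± 0.294, and its lowest rat, at 1.12, lay within the normal range. The ratio of Scnn1a to Scnn1b lay between 0.893 and 1.05 in the normal rats. It lay between 1.12 and 1.76 in DN, 1.29 and 1.90 in SIN (20 mg/kg), and 1.12 and 1.41 in SIN (40 mg/kg) rats. All 12 diabetic rats thus lay above all normal rats in this ratio, and neither ratio was tested.

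Scnn1b and Scnn1g lie next to each other on chromosome 1 of GRCr8, and their RefSeq starts are 125151 bases apart on the same strand. Their levels moved together from rat to rat: after subtraction of the group means of log2 CPM, r was 0.74 (Spearman's rho 0.79) over the 16 rats, and 0.71 without the 2 rats farthest from the median of Scnn1b. The 250 bases before their starts are shown together with those of Wnk4, one of the called genes, so that the windows can be compared; sequences are from RefSeq on GRCr8, on the gene's strand, and capitals mark each GGGCGG or its reverse complement CCGCCC, the GC box.
Scnn1b, chr1:185861126-185861375, plus strand: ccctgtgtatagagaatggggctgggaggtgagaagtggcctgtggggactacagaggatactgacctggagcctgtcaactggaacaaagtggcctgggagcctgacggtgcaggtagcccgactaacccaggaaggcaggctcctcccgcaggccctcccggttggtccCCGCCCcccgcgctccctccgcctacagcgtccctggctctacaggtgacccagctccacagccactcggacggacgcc
Scnn1g, chr1:185735975-185736224, plus strand: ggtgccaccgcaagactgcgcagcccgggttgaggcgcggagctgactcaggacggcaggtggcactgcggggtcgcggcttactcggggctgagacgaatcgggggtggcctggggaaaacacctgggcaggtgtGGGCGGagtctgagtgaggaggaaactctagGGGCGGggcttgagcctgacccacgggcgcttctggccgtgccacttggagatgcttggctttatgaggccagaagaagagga
Wnk4, chr10:86702708-86702957, plus strand: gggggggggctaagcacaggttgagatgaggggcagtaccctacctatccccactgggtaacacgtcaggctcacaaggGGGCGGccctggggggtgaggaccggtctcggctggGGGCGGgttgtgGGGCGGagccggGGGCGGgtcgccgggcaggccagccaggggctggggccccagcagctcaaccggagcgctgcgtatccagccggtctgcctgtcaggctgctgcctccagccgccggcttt

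The window of Wnk4 holds 4 GC boxes, that of Scnn1g 2 and that of Scnn1b 1, and 30.5% of the 33469 windows of this length hold at least 1. GC made up 72.0% of the bases of the Wnk4 window and 65.6% of each ENaC window, against a median of 51.2% over all windows. Searched on both strands, TATAAA (in 12.9% of all windows), CCAAT (34.0%), CACGTG, the E-box of clock factors (5.6%), and AGAACA, a half-site of the steroid receptors (17.5%), were not found in these 3 windows. Of the 10 genes 9 had a window, and Scnn1a had none. Windows of Nedd4l and Sgk1, which edgeR did not call with all rats, also held GC boxes. TATAAA was found in windows of Sgk1, Umod, Kcnj1 and Slc12a3. AGAACA was found in windows of Umod and Kcnj1, and CCAAT in those of Slc12a1, Kcnj1 and Nedd4l.

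Sgk1, the kinase induced by aldosterone and glucocorticoids that raises ENaC at the membrane, was lowest in the DN group. Its level was 207, 329, 196 and 279.5 CPM in the normal rats and 152, 179.8, 219.9 and 154 CPM in the DN rats. The groups overlapped through DN replicate 3, the highest DN rat, and differed by -0.51 ± 0.19 (edgeR, unadjusted p = 0.0201, adjusted p = 0.0768). Without that rat the difference was -0.64 and passed, with an adjusted p of 0.0498, and DESeq2 called it with all rats (adjusted p = 0.0395). The SIN (20 mg/kg) rats had 272, 240.3, 199 and 226 CPM, 0.40 ± 0.15 above DN (unadjusted p = 0.0206, adjusted p = 0.287). The SIN (40 mg/kg) rats had 248, 192, 339 and 281 CPM, 0.59 ± 0.18 above DN (unadjusted p = 0.00936, adjusted p = 0.204). Both SIN groups overlapped DN through replicate 3 and neither passed, and these differences rest on the same DN rats as the first.

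Nedd4l, the ubiquitin ligase that removes ENaC from the membrane and that Sgk1 inhibits, was the steadiest of the 10 genes. It lay between 102 and 127 CPM in the normal rats and between 108 and 119 CPM in the 12 diabetic rats. Its differences from normal were -0.04 ± 0.09 in DN and SIN (20 mg/kg) and -0.06 ± 0.09 in SIN (40 mg/kg), with adjusted p-values from 0.732 to 0.846. The ratio of Sgk1 to Nedd4l per length was 1.98 ± 0.390 in normal, 1.43 ± 0.262 in DN, 1.90 ± 0.274 in SIN (20 mg/kg) and 2.17 ± 0.459 in SIN (40 mg/kg) rats.

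Counted together, the groups did not overlap for 3 of the 10 genes between DN and normal, against 24.3% of all genes, and the share called, 3 of 10, stood near its background. The median log2 fold change of the 10 was -0.01, and that of all genes 0.002. Between SIN (20 mg/kg) and normal 2 of the 10 did not overlap (13.7% of all genes), and between SIN (40 mg/kg) and normal 3 did not (14.3%). The medians of the 10 genes there were -0.05 and 0.22, and those of all genes 0.003 and 0.005.

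Against the DN group DESeq2, like edgeR, called none of the 10 genes with either dose. At an unadjusted p under 0.05 in edgeR, 2 of the 10 passed with 20 mg/kg, Scnn1b and Sgk1, where 15.4% of all genes did, and 1 passed with 40 mg/kg, Sgk1, where 17.1% did. None of the 10 was separated from the DN rats, against 8.99% of all genes with 20 mg/kg and 10.4% with 40 mg/kg. Between the doses Umod was the 1 gene of the 10 whose groups did not overlap (3.31% of all genes). Unadjusted p-values were under 0.05 for 4 of the 10 there, and for 4.98% of all genes: Umod was lower at 40 mg/kg, and Slc12a3 (0.37 ± 0.16), Scnn1b (0.34 ± 0.12) and Scnn1g (0.33 ± 0.13) were higher.

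**Figure D4:**
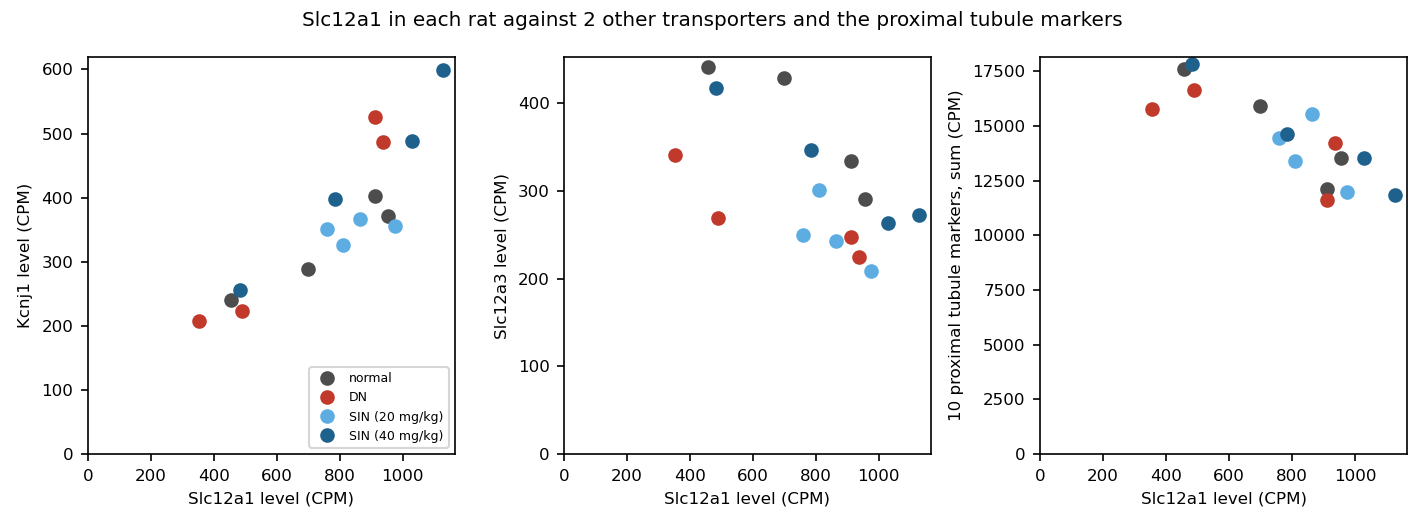
Level of Slc12a1 in each rat in CPM (x axis, from 0) against Kcnj1 (left), Slc12a3 (middle) and the sum of 10 proximal tubule markers (right), each in CPM (y axis, from 0), coloured by group. Over the 16 rats, r with Slc12a1 after subtraction of group means of log2 CPM was 0.96 for Kcnj1, -0.86 for Slc12a3 and -0.83 for the proximal tubule sum.

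Slc12a1, Kcnj1 and Slc12a3 varied from rat to rat within each group. With group means subtracted from log2 CPM, Slc12a1 and Kcnj1 had r = 0.96 over the 16 rats (rho 0.96, and 0.93 without the 2 rats farthest from the median). Slc12a1 and Slc12a3 had r = -0.86 (rho -0.84, and -0.78 without 2 rats), and Kcnj1 and Slc12a3 had r = -0.78 (rho -0.80, and -0.65). Of the 45 pairs of the 10 genes 4 had an r over 0.7 in either direction, these 3 and Scnn1b with Scnn1g, and the median size of r was 0.27. These correlations are descriptions without a p, since genes of 1 library share its depth and its mixture of kidney regions.

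Marker sums of other segments moved with the same rats. The sum of 10 proximal tubule markers had a within-group r of -0.83 with Slc12a1, -0.82 with Kcnj1 and 0.70 with Slc12a3. The 6 podocyte markers had -0.88, -0.82 and 0.88, and the 6 inner medulla and thin limb markers 0.80, 0.74 and -0.55. Distal convoluted tubule markers outside the 10 genes had -0.82, -0.80 and 0.56, and principal cell markers 0.71, 0.67 and -0.37. Thick ascending limb markers outside the 10 genes had smaller values, 0.42, 0.54 and -0.03. Each sum adds CPM, so its most abundant genes weigh most. In the normal rats Egf averaged 1283 CPM of a mean thick ascending limb sum of 2018 CPM. The r of a sum therefore need not hold for each of its markers. In the normal rats the inner medulla sum ran from 43.3 to 399 CPM and in the DN rats from 60.3 to 498 CPM. Those lowest values were in normal replicate 1 and DN replicate 4, which also had the lowest Slc12a1 of their groups. In the SIN (40 mg/kg) group replicate 1 likewise had the lowest sum, 154 CPM, and the lowest Slc12a1, 483 CPM. The SIN (20 mg/kg) group went the other way: replicate 1 had the lowest sum, 219 CPM, and the highest Slc12a1, 975 CPM.

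Umod, Scnn1a and Wnk4 had weaker relations with the proximal tubule sum, with r of -0.39, 0.32 and -0.00. Those of Umod were larger with other sums: -0.61 with podocyte, -0.70 with distal convoluted tubule, 0.70 with principal cell and 0.67 with thick ascending limb markers. For Wnk4 the largest were 0.61 with principal cell and 0.54 with inner medulla and thin limb markers, and for Scnn1a 0.47 with thick ascending limb and 0.33 with podocyte markers. The part of these other sums in the differences between groups was not tested. With the log2 proximal tubule sum as a covariate, an alternative chosen after seeing the data, the same 3 genes were called between DN and normal, at -0.80 for Umod, 0.69 for Scnn1a and 0.62 for Wnk4. They were called without DN replicate 3 as well, at -0.75, 0.80 and 0.48. The standard error of Slc12a1 in that fit was 0.21 in place of 0.33 and that of Kcnj1 0.18 in place of 0.31, with differences of -0.22 and 0.04 that were not called. Between SIN (40 mg/kg) and normal Kcnj1 was then called as a 4th gene (0.32 ± 0.08, adjusted p = 0.0355). In bulk tissue fewer cells of a type and less RNA per cell cannot be told apart.

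The other markers of the segments were taken from lists. As a background for the counts below, 19.5% of all genes were called between DN and normal, and 24 of the 121 list genes outside the 10. Between SIN (40 mg/kg) and normal 5.97% of all genes were called. Of 13 thick ascending limb genes tested between DN and normal, none rose and 3 fell: Umod, Egf, a growth factor made in this segment (-1.12 ± 0.17, adjusted p = 0.00524), and Casr, the calcium-sensing receptor (-0.34 ± 0.09, adjusted p = 0.0275, and 0.0538 without DN replicate 3). The median of the list was 0.00. Egf fell from 1283 ± 215 CPM in the normal rats to 589 ± 114 in DN and was at 520.1 ± 33.7 and 489 ± 67.5 in the SIN groups. The remaining genes of the list, among them Slc12a1 and Kcnj1, were not called.

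Of 9 distal convoluted tubule genes tested, 1 rose between DN and normal, Wnk4, and none fell, with a median of -0.12. Pvalb, a marker of the early part of this segment, was at 0 in 15 of the 16 rats, while Slc12a3 was at least at 209 CPM in every rat. The reason for the absence of Pvalb counts was not tested. Between SIN (40 mg/kg) and normal 3 of the 9 rose and 1 fell, with a median of 0.05. Beside Wnk4, Slc8a1, the sodium-calcium exchanger, and Calb1, calbindin, named after their values were seen, rose there, by 1.12 ± 0.15 (adjusted p = 0.00246) and 0.97 ± 0.20 (adjusted p = 0.0217), and Kcnj10, a basolateral potassium channel, fell (-0.45 ± 0.09, adjusted p = 0.0174). In DN against normal Slc8a1, Calb1 and Kcnj10 were at 0.35, 0.29 and -0.23 without passing (edgeR, adjusted p = 0.0753, 0.265 and 0.513). None of them passed between SIN (40 mg/kg) and DN (adjusted p = 0.175, 0.221 and 0.677). Of 12 principal cell genes 1 rose in DN, Scnn1a, and none fell, with a median of 0.31. The summed level of the 8 of these that are not among the 10 genes lay between 489 and 1136 CPM in normal, 885 and 2106 in DN, 1114 and 1894 in SIN (20 mg/kg), and 1182 and 2128 in SIN (40 mg/kg) rats. Of these 8, Aqp2, the water channel of principal cells, and Avpr2, the vasopressin receptor, had the smallest unadjusted p in DN. They were at 2.34 and 2.01 times their normal level, without passing (edgeR, adjusted p = 0.0760 and 0.0699). The others were not called either. On the log2 scale Aqp3 was at 0.88, Fxyd4 at 0.79, Aqp4 at 0.30, Hsd11b2 at 0.15, Kcnma1 at -0.06 and Nr3c2 at -0.23. In the DN rats Aqp2 alone averaged 829 CPM of a mean sum of 1528 CPM. The within-group r of the principal cell sum was 0.10 with Scnn1a and 0.61 with Wnk4. The part of this sum in the differences of Scnn1a and Wnk4 between groups was not tested. Of 9 intercalated cell genes none rose and 3 fell, with a median of -0.19: Slc26a4, the apical exchanger pendrin (-0.89 ± 0.22, adjusted p = 0.0249), and the proton pump subunits Atp6v1b1 (-0.47 ± 0.11, adjusted p = 0.0210) and Atp6v0d2 (-0.95 ± 0.23, adjusted p = 0.0229).

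Among 11 genes of the WNK-SPAK pathway tested in DN, Wnk4 rose and 3 fell, with a median of -0.09. Those that fell were Cab39, a scaffold that activates SPAK (-0.49 ± 0.10, adjusted p = 0.0142), Cul3, the cullin of the ligase that degrades WNK kinases (-0.63 ± 0.16, adjusted p = 0.0249), and Ppp3ca, a calcineurin subunit (-0.67 ± 0.20, adjusted p = 0.0425). In the SIN groups none of these 3 was called against normal. There 6.36% (20 mg/kg) and 5.97% (40 mg/kg) of all genes were called, against 19.5% in DN. No gene of this pathway was called between a SIN group and DN.

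Among 17 genes of aldosterone and ENaC regulation none rose and 3 fell in DN, with a median of -0.06. These were Rictor, a subunit of the mTOR complex that activates Sgk1 (-0.84 ± 0.16, adjusted p = 0.0110), Sgk3, a kinase related to Sgk1 (-0.76 ± 0.15, adjusted p = 0.0135), and Tsc22d3, a gene that glucocorticoids and aldosterone induce (-0.72 ± 0.22, adjusted p = 0.0447). Usp2, a deubiquitinase that acts on ENaC and is known as a clock output, is named after its values were seen. It was at 38.9 ± 10.1 CPM in the normal rats, 106 ± 31.3 in SIN (20 mg/kg) and 122 ± 11.5 in SIN (40 mg/kg), differences from normal of 1.45 ± 0.25 (adjusted p = 0.00880) and 1.65 ± 0.18 (adjusted p = 8.12e-04). In DN it was 0.64 above normal without passing (edgeR, adjusted p = 0.110). No gene of this list was called between a SIN group and DN. Of 8 corticosteroid-responsive genes, Sgk1 included, 1 rose and 3 fell in DN, with a median of -0.62. Klf9 (-1.09 ± 0.15, adjusted p = 0.00421), Fkbp5 (-0.95 ± 0.29, adjusted p = 0.0452) and Tsc22d3 fell, and Cdkn1a, a cell cycle inhibitor that p53 also induces, rose (0.88 ± 0.25, adjusted p = 0.0377). Without DN replicate 3 Fkbp5 was at -1.06 (adjusted p = 0.0544) and Cdkn1a at 0.89 (adjusted p = 0.0612).

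None of 9 sodium pump and basolateral channel genes was called in DN (median 0.13), and Kcnj10, named after its values were seen, fell in SIN (20 mg/kg) against normal (-0.53 ± 0.10, adjusted p = 0.0166) as in the other SIN group. Of 6 other potassium channel genes tested 1 rose in DN, Kcnq1 (0.55 ± 0.15, adjusted p = 0.0328), and none fell, with a median of 0.17. No gene of the proximal tubule (10 tested), podocyte (6), inner medulla and thin limb (6) or renal pelvis (10) lists was called in DN, and 1 of 7 leukocyte genes, Ptprc, fell. Without DN replicate 3 the proximal tubule gene Slc5a12 was called (-1.54, adjusted p = 0.0238, against -1.07 and 0.0864 with all rats). With all rats the list medians were 0.03, -0.38, 0.74, 0.92 and -0.24.

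The clock genes moved with the groups too. Of 9 genes that peak with Dbp 5 rose in DN and none fell, and of 5 that peak with Arntl 3 fell and none rose. Tef, one of the 5 that rose (0.50, adjusted p = 0.0392), was at 0.37 without DN replicate 3 (adjusted p = 0.0688). The clock score, the mean log2 CPM of the Dbp list minus that of the Arntl list, was -0.45 ± 0.34 in normal, 1.10 ± 0.65 in DN, 2.62 ± 0.64 in SIN (20 mg/kg) and 2.56 ± 0.27 in SIN (40 mg/kg) rats. Its within-group r was 0.53 with Wnk4 and between -0.18 and 0.16 with the other 9 genes. The part of the clock score in the differences of Scnn1a, Wnk4, Umod and Usp2 between groups was not tested.

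The genes whose log2 CPM over the 16 rats was most like that of each of the 10, among 16420 genes and by Pearson's r, are named here. For Slc12a1 they were Pik3r3 and Pde1a (both 0.93) and Srgap3 (0.92), and for Kcnj1 Ninl and Ptger3, a prostaglandin receptor of the thick ascending limb (both 0.94), and Pde1a (0.92). Pde1a was near both, and within groups its r was 0.97 and 0.94. For Slc12a3 they were Glud1 (0.89), Ptpro, a podocyte phosphatase (0.87), and Slc26a4 (0.86). For Umod they were Chrna2, Pld1 and Cux1 (each 0.91), whose r fell to 0.46, 0.60 and 0.65 within groups.

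Wnk4 was most like Tns2 (0.93), Tp53bp2 (0.90) and Med23 (0.89). Scnn1a was most like Naa60, Ttc38 and Ldhb (each 0.91). The nearest genes to Scnn1b were Sirt3 (0.84), St6galnac6 and Pex26 (both 0.83), and to Scnn1g Tsc1 (0.80), Snx30 (0.77) and LOC102549506 (0.75). Sgk1 was nearest to Tsc22d3, a gene of the same list of corticosteroid responses (0.79), Wdr7 (0.78) and Prnp (0.77), and Nedd4l to Susd3 (0.89), Dnaaf5 (0.79) and Fitm2 (0.77).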

How the data were processed

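Bulk mRNA from the renal tissue of 16 rats (4 groups of 4) was sequenced after oligo(dT) enrichment. Per the paper, the authors used SeqPrep and Sickle for trimming and TopHat for alignment to the Ensembl rat genome. The submitters' processing notes also name Bowtie, RSEM and edgeR. The authors deposited 1 table of estimated counts before normalization for 35849 genes, of which 2966 are assembled loci with no Ensembl ID. Of its nonzero values 74.3% were whole. Counts were rounded. Columns of 4 other libraries, the group means and the GO and KEGG annotation were not used.

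Genes kept by filterByExpr were tested with edgeR 4.0.16 (quasi-likelihood, TMM, a separate fit for each of 6 comparisons) in R 4.3.3. P-values were two-sided and adjusted over all genes tested (Benjamini-Hochberg). The standard error is the size of the log2 fold change divided by the square root of the quasi-F statistic. CPM used TMM factors over 16 rats, and correlations used log2 CPM with a prior count of 2. Per-length levels divide by the table's gene length, whose definition was not given in the sources used here. Where a list gene had 2 rows (Slc14a2), the first was used. Replicates are separate rats by the labels. Totals of 19616312 to 25217030 per rat set the counting precision. Replicate numbers were not used to pair the rats in the main fits.

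Alternatives were DESeq2 1.42.0, RLE factors, no filter, at least 10 counts in every rat, all 16 rats in 1 fit, the replicate block, unrounded counts, each rat left out in turn and, chosen after seeing the data, a proximal tubule covariate with and without DN replicate 3 and the list genes without that rat. The steps were tested on simulated data. The 10 genes, the lists and the tests were chosen with earlier results of these data known. Named list genes passed the adjusted threshold in DN over normal or a SIN group over DN, at most 5 a list. Where none outside the 10 genes passed, those with the smallest p could be named. Exceptions are genes said to be named after their values were seen, the remaining principal cell genes, Pvalb and Slc5a12. Promoter windows are RefSeq's on GRCr8, whereas the counts rest on an earlier assembly.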

Additional observations from a re-analysis of the deposited data

Results flagged for a closer look

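The Umod level of SIN (40 mg/kg) replicate 2, at 1367 CPM, stood apart from the other 3 rats of its group, which lay between 1629.6 and 1669 CPM. Its gap to the nearest of them was 0.870 of the whole range of the group. It was the 1 such value among 40 pairs of a gene and a group, and chance gives about 1 in 20. The call of Umod against normal held in edgeR with each of the 8 rats left out, with adjusted p-values between 0.00226 and 0.00460.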

How the results depend on the processing

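The numbers of genes called changed with the rats included. Leaving out 1 rat at a time gave 0 to 4 called genes between DN and normal (0 without normal replicate 4 and 1 without normal replicate 3), 1 to 3 between SIN (20 mg/kg) and normal, and 1 to 3 between SIN (40 mg/kg) and normal. DESeq2 called 4 genes between SIN (20 mg/kg) and normal, where edgeR called 2. The share of all genes called in each of these settings is not given here. Whether these counts changed more than those of all genes therefore cannot be read from them. No alternative called a gene between a SIN group and DN or between the doses. With all rats kept, 462 of 480 fold changes of single genes under the alternatives kept their direction and their side of the threshold, and 411 of 480 did with 1 rat left out. The cause of the changes was not tested.

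The replicate block gave 2 called genes between DN and normal, Umod and Scnn1a, and Wnk4 was lost (0.62, adjusted p = 0.0761). Between SIN (20 mg/kg) and normal it lost Scnn1a (0.62, adjusted p = 0.0896) and gained Wnk4 (0.55, adjusted p = 0.0457), and it changed no other call. Same-numbered rats had correlations of their deviations between -0.24 and 0.24 over 24 pairs, of which 2 were over 0.1. Between SIN (40 mg/kg) and normal the block lowered the standard error of Slc12a1 from 0.28 to 0.08 and of Kcnj1 from 0.24 to 0.11. Between DN and normal it raised them, from 0.33 to 0.41 and from 0.31 to 0.38. Whether same-numbered rats shared more than a number was not tested.

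The differences whose sign changed under an alternative were small and none was called. Under the replicate block Kcnj1 was 0.08 between SIN (20 mg/kg) and DN, Scnn1a -0.00 between SIN (40 mg/kg) and DN, and Slc12a1 -0.06 between the doses. Scnn1a between SIN (40 mg/kg) and DN was -0.01 with DESeq2, RLE factors and all 16 rats in 1 fit. With the proximal tubule covariate Umod was -0.02 between SIN (20 mg/kg) and DN, Scnn1a -0.00 between SIN (40 mg/kg) and DN, and Nedd4l 0.00 between SIN (20 mg/kg) and both DN and normal. With that covariate and without DN replicate 3 Nedd4l was 0.01 between DN and normal. With at least 10 counts in every rat Nedd4l was 0.00 between SIN (20 mg/kg) and DN.

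With 1 rat left out, the ranges of differences that changed sign were as follows. Between DN and normal they were -0.36 to 0.04 for Slc12a1, -0.09 to 0.34 for Kcnj1 and -0.02 to 0.08 for Scnn1g. Between SIN (20 mg/kg) and DN they were -0.09 to 0.10 for Umod, -0.24 to 0.19 for Kcnj1, -0.22 to 0.01 for Slc12a3, -0.21 to 0.08 for Wnk4, -0.15 to 0.02 for Scnn1a and -0.02 to 0.02 for Nedd4l. Between SIN (40 mg/kg) and DN they were -0.01 to 0.20 for Wnk4, -0.16 to 0.08 for Scnn1a, -0.13 to 0.06 for Scnn1b and -0.05 to 0.01 for Nedd4l. Between the doses they were -0.15 to 0.20 for Slc12a1, -0.09 to 0.15 for Scnn1a and -0.04 to 0.00 for Nedd4l. Between SIN (20 mg/kg) and normal they were -0.00 to 0.31 for Slc12a1, -0.01 to 0.22 for Kcnj1, -0.14 to 0.01 for Scnn1b, -0.22 to 0.04 for Sgk1 and -0.10 to 0.00 for Nedd4l. Between SIN (40 mg/kg) and normal they were -0.00 to 0.37 for Slc12a1 and -0.08 to 0.22 for Sgk1. Groups of 4 rats limit what these tests can show.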
